A study of Homo sapiens with 6 samples.

Results

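Metallothioneins and the genes of zinc export were examined in LM3 cells, an established human hepatocellular carcinoma (HCC) cell line. The set comprised 8 genes chosen by symbol, namely the metallothioneins MT1E, MT1F, MT1G, MT1M, MT1X and MT2A, the transcription factor MTF1 and the zinc exporter SLC30A1. Of these, 7 had a row among the 33007 genes of the deposited table, MT1M was not analysed here, and 6 had enough reads to be tested. RNA-seq had been performed on 3 samples carrying the vector (control) and 3 in which ZNF706 was stably knocked down with the lentiviral hairpin vector pLKO.1-shZNF706. Both groups were LM3 cells with the genotype given as WT. The labels do not name the hairpin used, nor whether samples of a group came from separate cultures, so p-values measure only the spread between these samples, which may be technical, and an effect of the hairpin itself cannot be told apart from loss of ZNF706. Total counts were 62684076, 64713764 and 63054445 for control replicates 1 to 3, and 68548419, 65861994 and 69057423 for knockdown replicates 1 to 3.

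Metallothioneins are small, cysteine-rich proteins that bind zinc, copper and cadmium through the sulphur atoms of their cysteines, and liver is among the tissues known for making them. When free zinc rises, MTF1, a zinc finger protein that senses the metal, binds metal response elements in the promoters of the metallothionein genes and of SLC30A1 and raises their transcription. SLC30A1 sits in the plasma membrane and carries zinc out of the cell, other SLC30 proteins move it into organelles and vesicles, and SLC39 proteins bring it into the cytosol.

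The coding sequences of the 4 expressed metallothioneins are shown because their likeness decides how well reads can be assigned to each gene. Each lies on the plus strand of chromosome 16 (longest transcript with a consensus coding sequence in GENCODE release 29, GRCh38), is split over 3 exons and holds 186 bases, with 61 codons before the stop, of which 20 encode cysteine. The coding parts span chr16:56608656-56609351 for MT2A, chr16:56625852-56626968 for MT1E, chr16:56658059-56659161 for MT1F and chr16:56682541-56684046 for MT1X. These spans leave out the stop codon, which the sequences below include. Capitals mark the bases that differ from MT2A.
MT2A: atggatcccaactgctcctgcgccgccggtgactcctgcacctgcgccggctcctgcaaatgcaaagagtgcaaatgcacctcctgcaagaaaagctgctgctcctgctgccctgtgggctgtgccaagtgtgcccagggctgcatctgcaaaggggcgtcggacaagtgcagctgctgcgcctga
MT1E: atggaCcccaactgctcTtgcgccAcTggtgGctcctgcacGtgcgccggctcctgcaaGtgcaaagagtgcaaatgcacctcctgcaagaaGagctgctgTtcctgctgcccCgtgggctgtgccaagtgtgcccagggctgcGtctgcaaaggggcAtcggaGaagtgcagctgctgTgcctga
MT1F: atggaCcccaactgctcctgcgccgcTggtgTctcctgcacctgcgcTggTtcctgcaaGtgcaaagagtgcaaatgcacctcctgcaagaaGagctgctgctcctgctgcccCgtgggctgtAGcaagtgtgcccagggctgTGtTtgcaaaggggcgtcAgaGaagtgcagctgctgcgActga
MT1X: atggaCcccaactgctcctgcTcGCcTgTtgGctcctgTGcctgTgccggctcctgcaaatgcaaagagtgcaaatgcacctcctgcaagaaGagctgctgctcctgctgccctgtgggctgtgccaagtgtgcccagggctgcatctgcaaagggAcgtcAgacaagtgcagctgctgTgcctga
MT1E differed from MT2A at 14 bases (92.5% identity), MT1X at 14 and MT1F at 16, while MT1F and MT1X, the least alike pair, shared 88.7%. Of all stretches of 50 bases in the full transcript, 5.3% in MT1E, 4.9% in MT2A and 3.6% in MT1F also occurred in a transcript of another gene. MT1X had 45.1%, among them stretches of AC026461.1. No stretch of 100 bases was shared for MT1E, MT2A or MT1F, whereas 19.1% were for MT1X, so the counts of MT1X are the least certain. The read length and the treatment of reads with several matches are not given in the sources used here. No row of the table overlapped the position of any of the 7 genes.

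Promoter windows, from 250 bases before the start of the gene to 50 bases after it, were in the RefSeq table (GRCh38.p14) for MT2A, MT1X, SLC30A1 and MTF1. They are shown for the first 3, whose promoters are known to bind MTF1. Capitals mark the core of the metal response element, searched as TGCGCNC and TGCACNC on both strands.
MT2A: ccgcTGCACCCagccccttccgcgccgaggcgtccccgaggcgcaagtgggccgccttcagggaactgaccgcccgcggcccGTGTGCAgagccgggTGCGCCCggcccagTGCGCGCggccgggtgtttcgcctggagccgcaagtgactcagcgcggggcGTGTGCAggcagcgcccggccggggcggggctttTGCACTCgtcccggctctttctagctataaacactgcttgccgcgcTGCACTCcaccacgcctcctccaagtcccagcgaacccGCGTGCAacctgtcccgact
MT1X: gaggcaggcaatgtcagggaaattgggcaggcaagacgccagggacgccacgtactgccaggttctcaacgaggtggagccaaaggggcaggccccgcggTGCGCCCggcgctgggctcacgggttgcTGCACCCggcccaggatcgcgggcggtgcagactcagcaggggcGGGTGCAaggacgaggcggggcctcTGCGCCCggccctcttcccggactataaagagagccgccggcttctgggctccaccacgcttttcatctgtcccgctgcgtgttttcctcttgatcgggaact
SLC30A1: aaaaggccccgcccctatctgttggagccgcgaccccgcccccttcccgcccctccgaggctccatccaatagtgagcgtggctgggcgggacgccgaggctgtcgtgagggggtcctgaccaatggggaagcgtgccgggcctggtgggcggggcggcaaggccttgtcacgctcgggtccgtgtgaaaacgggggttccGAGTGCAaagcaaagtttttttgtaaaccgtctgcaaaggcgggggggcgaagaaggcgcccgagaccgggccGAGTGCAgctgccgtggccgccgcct
These windows lie at chr16:56608334-56608633 (plus strand), chr16:56682220-56682519 (plus strand) and chr1:211579112-211579411 (minus strand). The MT2A window held 8 cores (2 of TGCGCNC and 6 of TGCACNC), the MT1X window 4 (2 of each), the SLC30A1 window 2 of TGCACNC and the MTF1 window 0, with no overlap between cores in any of them. Of the 35116 promoters of this length in the table, 29.6% held at least 1 core, 2.3% held 3 or more and 0.162% held 5 or more. A match of these letters is a description of the sequence and not a measured binding site.

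**Figure D1:**
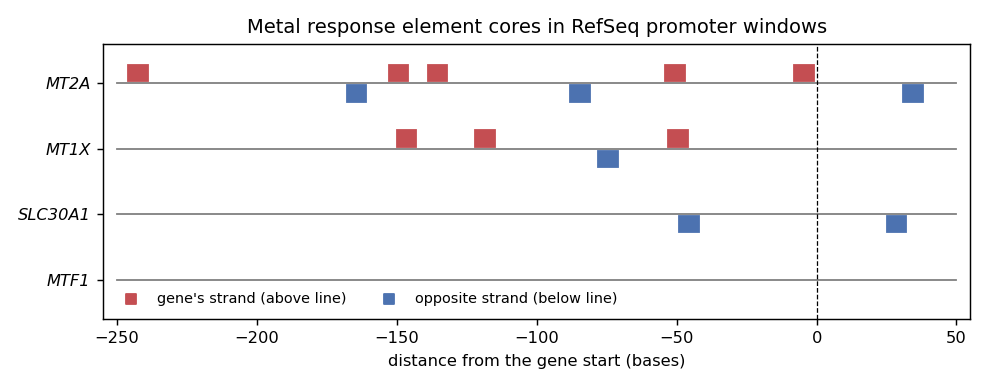
Positions of the metal response element cores (boxes) along the promoter windows of MT2A, MT1X, SLC30A1 and MTF1, in bases from the gene start (dashed line). Boxes above a line lie on the gene's strand and boxes below it on the opposite strand. The 8 cores of MT2A spread over the whole window, the 4 of MT1X lie before its start, SLC30A1 has 1 on either side of its start, and MTF1 has 0.

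ZNF706 (ENSG00000120963), the targeted gene, was examined first. CPM values are counts scaled to library size with edgeR's TMM factors. For ZNF706 they were 51.9, 55.1 and 54.7 under control conditions, against 33.5, 30.8 and 32.8 after knockdown, and the samples followed their labels (log2 fold change -0.73, SE 0.050, edgeR quasi-likelihood test, adjusted p = 3.7e-05). Of the 4 epithelial markers, the keratins KRT8 (1537 CPM in the control group) and KRT18 (963 CPM) were abundant. EPCAM (0.379 CPM) and CDH1 (2.10 CPM) were low in that group, and none of the 4 was called. The 12 hepatocyte markers were all detected but low, the highest being ALB, with a mean of 8.56 CPM over all samples. Their summed level was 18.1, 42.1 and 48.0 CPM in control and 22.9, 23.1 and 11.0 CPM in knockdown samples, so control replicate 1 and knockdown replicate 3 were the lowest of their groups. All 12 had a log2 fold change below 0, and 2 of them (APOB and SERPINA1, 16.7%) were called lower. Over all genes tested, 12.4% were called lower and 10.4% higher, and 8948 of 18390 were below 0. ALB, AFP, TF, FGA and FGB were each lowest of their groups in those same samples, so the 12 signs are not independent. Of 6 blood and immune markers, 5 had a row, and these summed to 27.2, 27.0 and 28.9 CPM in control and 40.8, 44.5 and 41.2 CPM in knockdown samples. Nearly all of this was CD68, a lysosomal protein used as a macrophage marker (26.6 and 41.4 CPM in the group means, called higher). The other 4 were low in both groups, and their groups overlapped. PTPRC had 8, 8 and 0 counts in control and 0 in each knockdown sample, HBB had 4, 0 and 0 against 0 in each, CD14 had 6, 17 and 40 against 21, 45 and 47, and LYZ had 24, 39 and 63 against 14, 0 and 29. The 6 fibroblast markers summed to 88.9, 79.7 and 83.4 CPM against 95.3, 97.0 and 95.2 CPM, led by COL1A1, and of the 5 tested, 2 (COL1A1 and PDGFRB) were called higher and 3 (COL3A1, LUM and DCN) were below 0 without a call (log2 fold changes -2.04, -1.26 and -0.04). The 3 endothelial markers with a row summed to 13.6, 14.9 and 16.3 CPM against 11.2, 12.6 and 13.1 CPM. CDH5 was called lower (8.83 and 5.42 CPM in the group means). PECAM1 was slightly higher without a call (6.06 and 6.73 CPM, log2 fold change 0.15), with overlapping groups, and VWF was near 0. The part of these markers in the results below was not tested. All samples were of the same cell line, so these markers are not read as a mixture of cell types. In bulk RNA, fewer LM3 cells expressing a gene and less of its RNA per cell cannot be told apart.

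Per length, the 7 genes covered a wide range. MT2A was the most abundant, at 141 ± 6.59 FPKM (SD, n = 3) in the control group, followed by SLC30A1 at 20.8 ± 0.554 FPKM, MT1E at 4.79 ± 0.775, MTF1 at 4.39 ± 0.153, MT1X at 2.92 ± 0.255 and MT1F at 0.887 ± 0.0757. FPKM values are scaled to library size and to the length of the gene. The control samples of MT1E (3.97 to 5.51 FPKM) and MTF1 (4.21 to 4.48 FPKM) overlapped, and no other neighbours in this order did. In the knockdown group the order was the same, but MT1E, at 7.79 ± 0.238 FPKM, lay above every MTF1 value (4.16 to 4.50 FPKM). MT1G had 0 counts in all 6 samples, which allows at most 0.0434 to 0.0479 CPM (3 counts of the total, counting error only).

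Knockdown of ZNF706 was accompanied by a rise of a single metallothionein, MT1E. MT2A, which carried most metallothionein reads, was slightly lower in the knockdown without passing the threshold, and MT1X, MT1F, MTF1 and SLC30A1 did not pass it either. Of the 6 genes tested, edgeR called 1 higher and 0 lower at an adjusted p below 0.05, where 10.4% of all 18390 genes tested were higher and 12.4% lower (22.8% in either direction). At an unadjusted p below 0.05, 1 was higher (MT1E) and 1 lower (MT2A), and DESeq2 called the same pair. With thresholds of an unadjusted p below 0.05 and a change of 0.3 or more on the log2 scale, which the study set on DESeq2 and which were applied here to the edgeR fit, MT1E was higher and no member lower, where 9.61% of all genes were higher and 5.88% lower. The median log2 fold change of the 6 genes was -0.08, beside 0.01 over all genes. The balance over all genes, 1906 higher and 2286 lower, became 2742 higher and 1518 lower with scaling by library size alone.

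MT1E (ENSG00000169715, chr16:56625475-56627112, plus strand) encodes one of the metallothionein-1 isoforms. Its counts were 413, 309 and 370 in control and 667, 602 and 638 in knockdown samples. After TMM scaling these were 6.67, 4.86 and 6.03 CPM against 9.51, 8.97 and 9.12 CPM. Every knockdown sample lay above every control sample, and control replicate 2 was the lowest of all. The spread was wider in the control group (coefficient of variation 15.7%) than in the knockdown group (3.02%). MT1E rose by 0.65 on the log2 scale (SE 0.13, edgeR quasi-likelihood test, adjusted p = 0.00586), which is 1.57-fold with a 95% interval of 1.29 to 1.92. Of all genes tested, 2.49% were called and rose at least as much. The rise ranged from 0.53 without control replicate 2 to 0.75 without control replicate 1, and MT1E was called in all 17 alternative fits (adjusted p at most 0.0239 over the edgeR, DESeq2 and limma fits).

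MT2A (ENSG00000125148, chr16:56608584-56609497, plus strand) encodes the main metallothionein of most human cells. Its counts were 9455, 8963 and 9403 in control and 8580, 9276 and 9607 in knockdown samples. Scaled to the library sizes, which were larger after knockdown, its level was 153, 141 and 153 CPM against 122, 138 and 137 CPM. The groups did not overlap, although control replicate 2 and knockdown replicate 2 lay close together. Over all genes tested, the groups of 19.7% were apart with the knockdown higher and of 19.7% with it lower (39.4% together). For MT2A the log2 fold change was -0.17 (SE 0.054, edgeR quasi-likelihood test, adjusted p = 0.0502), a difference of -11.0% with a 95% interval from 0.819-fold to 0.968-fold. The call depended on the processing, since the adjusted p ranged over its alternatives from 0.0128 with DESeq2 to 0.154 with scaling by library size alone.

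**Figure D2:**
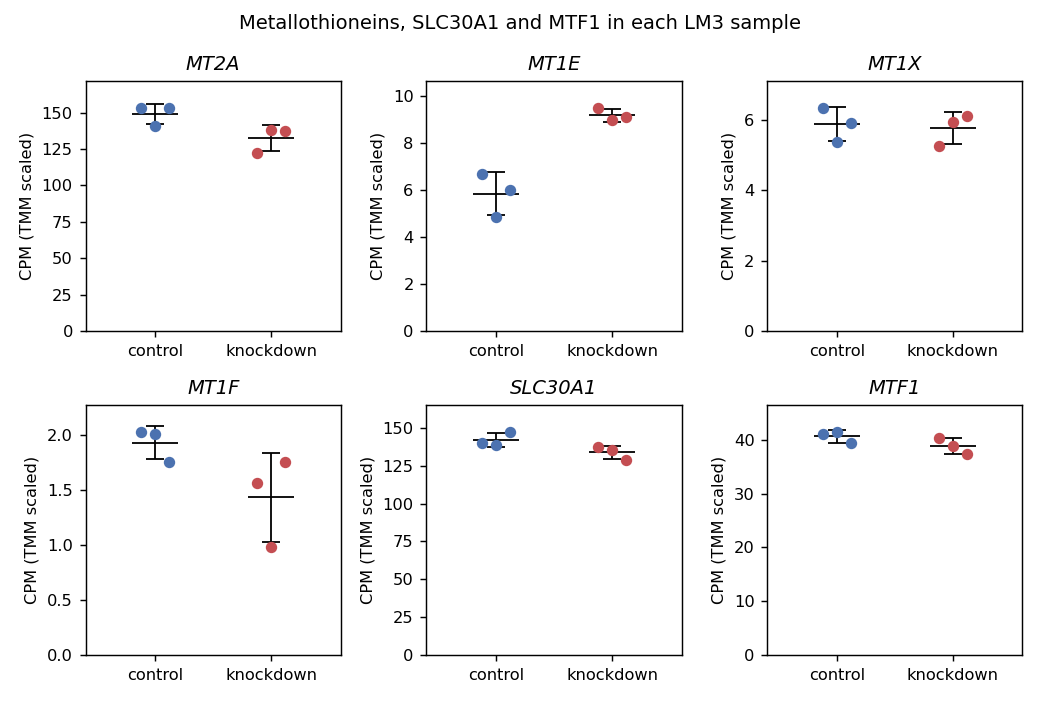
CPM values (TMM scaled, each axis starting at 0) of MT2A, MT1E, MT1X, MT1F, SLC30A1 and MTF1 in the control and knockdown samples. Points are samples, and bars give the mean and SD of 3 samples. The MT1E points separate widely between the groups, from at most 6.67 CPM to at least 8.97 CPM, whereas those of MT1X and MTF1 overlap.

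MT1X (ENSG00000187193, chr16:56682470-56684196, plus strand), another isoform of the metallothionein-1 group, had 6.33, 5.36 and 5.90 CPM in control and 5.25, 5.93 and 6.10 CPM in knockdown samples. The groups overlapped, with knockdown replicate 1 the lowest sample and control replicate 1 the highest. Its log2 fold change was -0.03 (SE 0.12, 95% interval -0.30 to 0.25, edgeR quasi-likelihood test, adjusted p = 0.914). A change in MT1X as large as the 0.65 measured for MT1E lies outside that interval.

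MT1F (ENSG00000198417, chr16:56657731-56660698, plus strand) was the least abundant of the expressed metallothioneins, with counts of 126, 128 and 108 in control and 110, 66 and 123 in knockdown samples. These were 2.04, 2.01 and 1.76 CPM against 1.57, 0.984 and 1.76 CPM. Knockdown replicate 2 was lower than the other 5 samples, and the highest knockdown sample only just missed the lowest control sample. With a log2 fold change of -0.43 (SE 0.25, 95% interval -0.99 to 0.13, edgeR quasi-likelihood test, adjusted p = 0.267), the gene was not called, and the value was -0.22 without knockdown replicate 2. The coefficient of variation was 28.1% in the knockdown group and 7.93% in the control group.

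MT1E and MT2A were also set against each other within a sample, where library scaling cancels. This restates the values of both genes and is given as a description. For every 100 counts of MT2A there were 4.37, 3.45 and 3.94 counts of MT1E in control and 7.77, 6.49 and 6.64 in knockdown samples. The log2 ratio of both genes differed by 0.83 (SE 0.13) between the groups, which did not overlap, and an exact permutation test of 3 samples against 3 cannot go below p = 0.1. Per count of MT1X, MT1E had 1.05, 0.906 and 1.02 counts in control and 1.81, 1.51 and 1.49 in knockdown samples. Not corrected for gene length, MT1E made up 3.59% ± 0.403 (SD, n = 3) of all metallothionein counts in the control group and 6.20% ± 0.575 in the knockdown group, while MT2A went from 91.6% ± 0.514 to 89.0% ± 0.733. The summed level of the metallothioneins was 168, 153 and 167 CPM in control and 139, 154 and 154 CPM in knockdown samples. These groups overlapped, and the log2 ratio of their means was -0.13, or -0.08 without knockdown replicate 1 and -0.07 with scaling by library size alone.

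**Figure D3:**
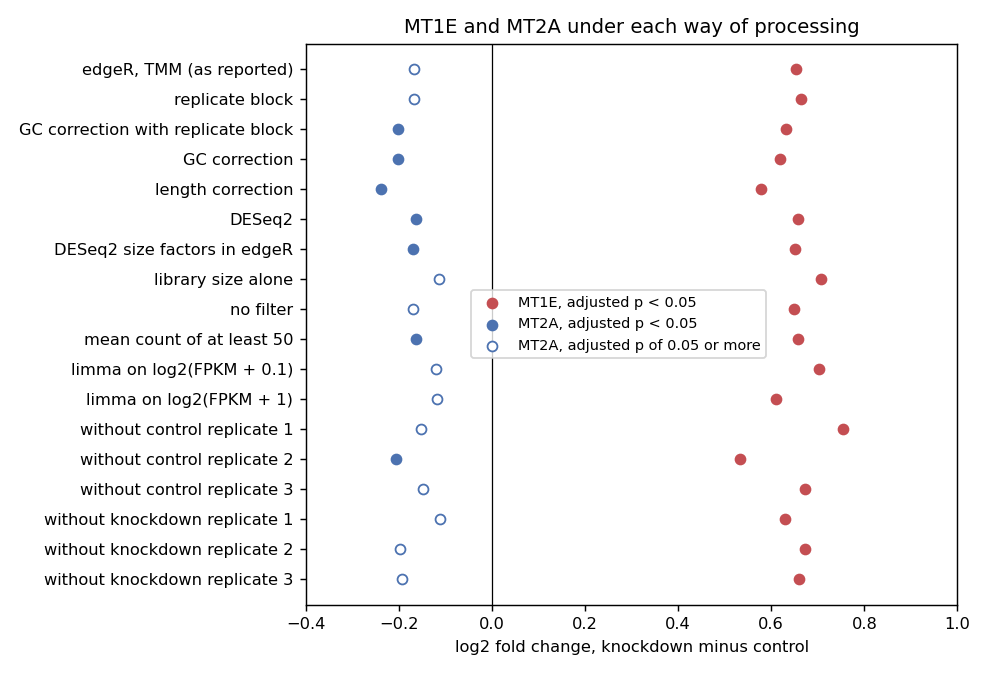
Log2 fold changes (knockdown minus control, horizontal axis) of MT1E (red) and MT2A (blue) under each way of processing (rows). Filled points had an adjusted p below 0.05 and open points did not. MT1E stays between 0.53 and 0.75 and is filled throughout, and MT2A stays between -0.24 and -0.11 and falls on both sides of the threshold.

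MTF1 (ENSG00000188786, chr1:37809574-37859592, minus strand), the metal-sensing activator of these genes, had 41.1, 41.5 and 39.3 CPM in control and 40.3, 38.9 and 37.4 CPM in knockdown samples. The groups overlapped, and the log2 fold change was -0.06 (SE 0.050, 95% interval -0.18 to 0.05, edgeR quasi-likelihood test, adjusted p = 0.414). SLC30A1 (ENSG00000170385, chr1:211571568-211579161, minus strand), the exporter of the plasma membrane, had 140, 139 and 148 CPM in control and 138, 135 and 129 CPM in knockdown samples. All 3 knockdown samples were below the control samples, the nearest of them narrowly. For SLC30A1 the log2 fold change was -0.09 (SE 0.040, 95% interval -0.18 to 0.0018, edgeR quasi-likelihood test, adjusted p = 0.152). Its sign turned with the GC correction, which removes the trend of a library on GC content (0.02, adjusted p = 0.706). The GC content of its longest transcript is 38.0%, against 53.5% to 58.2% in the expressed metallothioneins.

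Of 16 other family members and pseudogenes looked up, 5 had a row, and none of these had enough reads to be tested. The other 11 were not analysed here. The pseudogene MT1DP had 0 counts in each control sample and in knockdown replicate 1, 8 in knockdown replicate 2 and 6 in knockdown replicate 3. MT2P1 had 4, 2 and 9 against 4, 0 and 7, MT1P1 had 2, 0 and 0 against 3 in each, MT1XP1 reached 7 counts at most, and MT1P3 had 0 throughout. These counts are too few for a fold change to be given.

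Among the other zinc transporters, several were called lower in the knockdown and none higher, but with the GC correction 2 exporters (SLC30A5 and SLC30A6) were called higher. Of 6 tested exporters of the SLC30 family other than SLC30A1, 2 were lower and 0 higher (median log2 fold change -0.09). Of 11 tested importers of the SLC39 family, 5 were lower and 0 higher (median -0.11). Taken with SLC30A1, 7 of 18 tested transporters were lower, or 38.9%, where 12.4% of all genes were. This share depended on the processing. With the GC correction, 1 exporter (SLC30A7) and 3 importers were called lower, where 1932 of all 18390 genes were. Without knockdown replicate 2, the lower calls were 2 exporters and 1 importer, where 1500 of all 19100 genes tested were lower. At an unadjusted p below 0.05, 1 importer (SLC39A11) was higher, and DESeq2 called 0 transporters higher. At the study's thresholds, applied to the edgeR fit, only SLC30A7 and SLC39A14 were lower and only SLC39A11 higher. Of all genes, 5.88% were lower and 9.61% higher at those thresholds. Every fall was modest, the steepest being -23.5%.

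SLC30A7, which loads zinc into the Golgi apparatus, fell from 47.6 ± 1.97 to 36.5 ± 2.95 CPM (mean ± SD, n = 3 each, log2 fold change -0.39, SE 0.064, edgeR quasi-likelihood test, adjusted p = 0.00231). SLC30A9, a transporter of mitochondria, fell from 60.6 ± 2.54 to 50.8 ± 1.94 CPM (log2 fold change -0.25, edgeR quasi-likelihood test, adjusted p = 0.00374), but lost its call with the GC correction (-0.15, adjusted p = 0.0598), which left SLC30A7 as the one exporter called lower. SLC30A5 (102 ± 1.57 and 104 ± 3.45 CPM) and SLC30A6 (57.4 ± 3.59 and 60.7 ± 1.67 CPM), which form a complex in the early secretory pathway, had overlapping groups and were not called. Both were called higher with the GC correction, SLC30A5 at 0.12 (adjusted p = 0.0337) and SLC30A6 at 0.19 (adjusted p = 0.0285). SLC30A3 and SLC30A4 had under 3 CPM in each group, with intervals too wide to show a change, and SLC30A2 had 0 counts throughout.

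Of the importers, SLC39A14, which carries zinc and non-transferrin iron and is prominent in hepatocytes, fell most, from 252 ± 1.07 to 202 ± 7.64 CPM (log2 fold change -0.32, SE 0.036, edgeR quasi-likelihood test, adjusted p = 0.000345). It was called in all 17 alternative fits. Its close relative SLC39A8 fell from 96.8 ± 0.221 to 85.1 ± 3.85 CPM (-0.18), and lost its call in 1 of those fits, without knockdown replicate 2 (adjusted p = 0.0519). SLC39A10 (-0.13), SLC39A6 (-0.14) and SLC39A1 (-0.12), plasma membrane importers, fell by less than 10% each. Of the 17 alternative fits, SLC39A10 lost its call in 4 and SLC39A6 in 8, the GC correction among them (-0.02 and -0.06), and SLC39A1 in 9. The number of importers called was accordingly 3 with the GC correction, 2 with scaling by library size alone and 1 without knockdown replicate 2. SLC39A7, which releases zinc from the endoplasmic reticulum, had 188 ± 5.27 and 183 ± 4.28 CPM with overlapping groups.

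**Figure D4:**
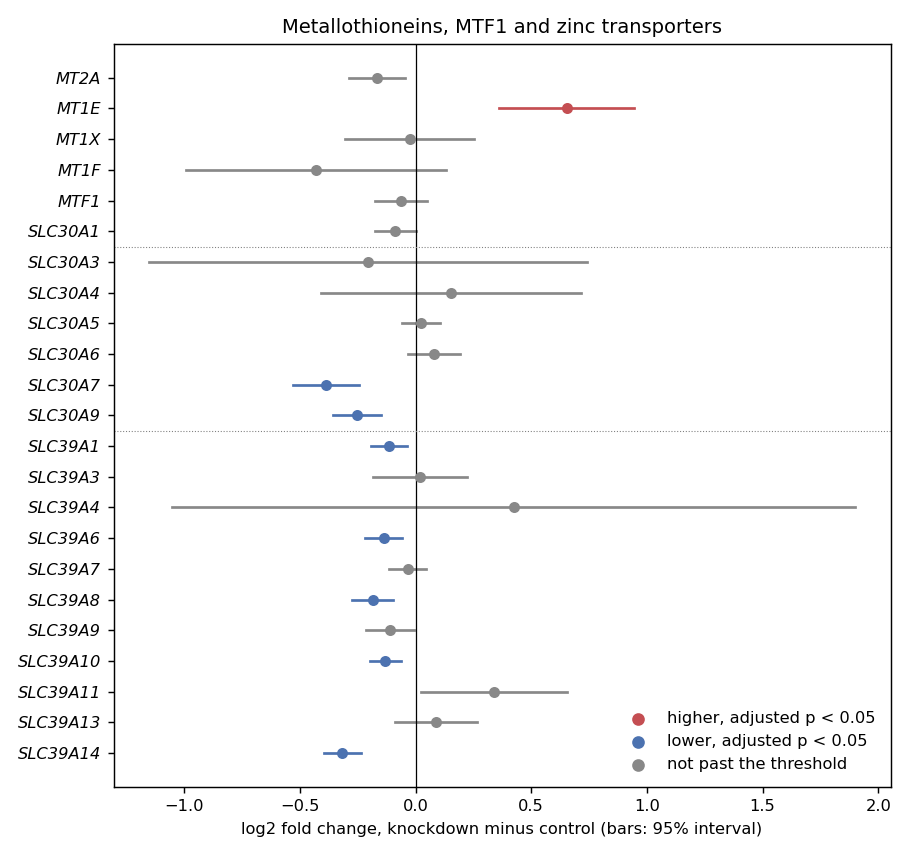
Log2 fold changes (points) with 95% intervals (bars) of the 6 tested metallothionein and zinc export genes, the other SLC30 exporters and the SLC39 importers, separated by dotted lines. In the edgeR fit shown, MT1E is the only gene called higher, at 0.65, and the 7 genes called lower lie between -0.39 and -0.12.

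Metallothioneins also bind copper, and 15 copper genes were tested. Of these, 2 were lower and 0 higher, a share of lower calls (13.3%) near that of all genes. At an unadjusted p below 0.05, 3 were higher and 3 lower, and DESeq2 called 1 higher (SCO2) and 2 lower. The balance depended on the processing, with 3 higher (SCO1, CP and MEMO1) and 1 lower under the GC correction, and 2 higher (CCS and SCO1) and 1 lower in the limma fits. SLC31A1, the main copper importer of the plasma membrane, fell from 114 ± 4.02 to 87.8 ± 4.65 CPM (log2 fold change -0.38, SE 0.047, edgeR quasi-likelihood test, adjusted p = 0.000548) and was called in all 17 alternative fits. STEAP4, a metalloreductase, was at -0.10 (adjusted p = 0.0496 in edgeR) and lost its call in 12 of the 17 fits. The copper exporters ATP7A (-0.30, adjusted p = 0.0843) and ATP7B (0.32, adjusted p = 0.319) were not called, apart from ATP7A without knockdown replicate 1 (-0.40, adjusted p = 0.0421).

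Among 12 genes known to be induced by cadmium and other metals together with the metallothioneins, 6 were called lower and 1 higher (median log2 fold change -0.23), where 12.4% of all genes were lower and 10.4% higher. The chaperone genes HSPA1A (-0.61) and HSPA1B (-0.57), whose near-identical copies could have exchanged reads, and DNAJB1 (-0.43) had the steepest falls among those called. HSPA6, a stress-inducible member of the same family, was at -0.75 but was not called (adjusted p = 0.142 in edgeR) except without control replicate 1 (-1.05, adjusted p = 0.0247). HSPB1, a small heat shock protein, rose from 169 ± 13.8 to 239 ± 9.40 CPM (log2 fold change 0.50, edgeR quasi-likelihood test, adjusted p = 0.000347). HMOX1, a heme oxygenase strongly induced by cadmium, had 17.1, 12.5 and 14.1 CPM in control and 13.3, 13.1 and 15.9 CPM in knockdown samples. Its groups overlapped, and the 95% interval of its log2 fold change ran from -0.33 to 0.24.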

How the data were processed

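Counts per gene, not normalized, and FPKM values per gene were deposited by the authors in a single table for 3 control and 3 knockdown samples. The authors mapped the reads with HISAT2; the submitters' processing notes name cutadapt 1.9, FastQC and GRCh38. The counting program, its handling of strand and the annotation release are not given in the sources used here. The deposited FPKM values were scaled by the authors to gene length and library size. Gene positions in the table overlapped those of GENCODE release 29 for 99.98% of the shared genes.

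After filterByExpr and TMM scaling, the quasi-likelihood functions glmQLFit and glmQLFTest (edgeR 4.0.16, R 4.3.3) were run with a term for the group only and Benjamini-Hochberg adjustment over 18390 genes. A gene was called at an adjusted p below 0.05. Standard errors (SE) come from the fold change and the F statistic, and 95% intervals use the t distribution of the fit. On simulated counts, 43 of 97 genes changed by 0.6 on the log2 scale and 64 of 98 changed by 1 were called, and 8 of 17625 unchanged genes. The simulation changed a far smaller share of genes than the 22.8% called in the data. Adjusted p-values depend on that share, so these rates do not give the power of the fit to the data. Replicates differed by more than sampling noise (chi-square per gene 12.8 to 22.2).

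The members and lists were chosen with earlier results of these data known. Named are the members, ZNF706, all other metallothionein rows, and genes of each list past the threshold (beyond 6, the 3 largest per direction). FKBP5, NR3C1, NUP93 and some marker genes were named although they did not pass it. SCO1, SCO2, CP, CCS, MEMO1, ATP7A, ATP7B, HMOX1, HSPA6 and the zinc transporters not called were named after their values were seen. Alternatives were DESeq2 1.42.0, DESeq2's size factors, library size alone, no filter, a floor of 50 on the mean count, a replicate term, offsets for GC content and length, limma 3.58.1 on log2(FPKM + 0.1) and log2(FPKM + 1) (mean FPKM from 1 upwards), and each sample left out in turn. A gene of the glucocorticoid list is not reported here.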

Additional observations from a re-analysis of the deposited data

How the results depend on the processing

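MT1E was called higher in all 17 alternative fits (log2 fold change 0.53 to 0.75), and MT1F and MTF1 kept their sign and stayed short of the threshold in every fit that tested them. MT1F, with a mean FPKM under 1, was not tested in the limma fits. MT2A was called lower, so that 1 member was lower in place of 0, with the GC correction (-0.20), the GC correction with the replicate block (-0.20), the length correction (-0.24), DESeq2 (-0.16), DESeq2's size factors in edgeR (-0.17) and a mean count of at least 50 (-0.16). Leaving out single samples gave -0.21 to -0.11, with the call made without control replicate 2 only. MT1X changed sign with library size alone (0.0275), with limma on FPKM (0.0228 and 0.0175 with pseudocounts of 0.1 and 1), and without control replicate 1 (0.0291) or knockdown replicate 1 (0.0379), the range over left-out samples being -0.0878 to 0.0379. SLC30A1 changed sign with the GC correction, without (0.023) and with the block (0.0233). The other exporters called were 3 with the GC correction, with or without the block (SLC30A5 and SLC30A6 higher, SLC30A7 lower), and 2 in every other fit. The importers called were 3 with the GC correction, with or without the block, 3 with limma at either pseudocount, 2 with library size alone and 1 to 4 with each sample left out. The copper genes called were 4 with the GC correction, with or without the block, 1 with no filter and 1 to 4 with each sample left out. Over all genes, 1253 were higher with no filter and 1518 lower with library size alone, and leaving out each sample gave 1148 to 1485 higher and 1500 to 1939 lower. The cause of these shifts was not tested. The summed metallothionein ratio stayed below 0, from -0.17 without control replicate 2 to -0.07 with library size alone.

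Same-numbered samples did not deviate together (correlations of 0.034, -0.036 and -0.016), so no pairing by number was visible. The labels do not say whether samples were prepared in pairs, and so few samples cannot exclude it. With the replicate block alone, 1967 genes were higher and 2394 lower, MT1E was at 0.66 and MT2A at -0.17 (edgeR quasi-likelihood test, adjusted p = 0.0527), and no member changed its call. The pseudogenes had too few counts to be tested.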

Other observations

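The 6 rows of the metallothionein cluster lie between positions 56608584 and 56684196 of chromosome 16 (GRCh38). Of 27 other genes within 500 kb, 14 were tested, and 3 were higher and 2 lower in the knockdown, where 10.4% of all genes were higher and 12.4% lower. BBS2, a subunit of the ciliary BBSome complex, rose (log2 fold change 0.50, edgeR quasi-likelihood test, adjusted p = 0.0056), as did GNAO1, a G protein subunit (0.35), and NLRC5, an activator of MHC class I genes (0.25). HERPUD1, a component of endoplasmic reticulum protein degradation, fell (-0.87), as did NUDT21, a factor of mRNA 3' end processing (-0.23). The nearest tested gene on the far side of MT1X, NUP93, was at -0.01 with a standard error of 0.043.

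Glucocorticoids are also known inducers of metallothionein genes. Of the receptor and 12 genes it is known to induce, 11 were tested, of which 3 were higher and 4 lower (27.3% and 36.4%, beside 10.4% and 12.4% of all genes). TSC22D3, a leucine zipper protein that mediates glucocorticoid effects, rose (log2 fold change 0.69, edgeR quasi-likelihood test, adjusted p = 0.000407), as did PER1, a gene of the circadian clock (0.26). PCK1 (-2.17, under 1 CPM in every sample, called in 5 of 14 alternative fits), ERRFI1 (-0.36) and DUSP1 (-0.29) were the steepest falls among those called. FKBP5, among the most responsive genes of the receptor, had 173 ± 6.70 and 165 ± 2.06 CPM, and the receptor gene NR3C1 had 319 ± 7.78 and 300.2 ± 9.75 CPM, neither past the threshold.

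Over the 6 samples, the genes whose log2 CPM followed MT2A most closely were PHYKPL (Pearson r = 0.99), TRAF3IP2, RAB1B, GSTCD and ASCC2, among 9473 genes with a mean of at least 10 CPM. In all, 34 genes had an r above 0.95. These values describe 6 samples in 2 groups of 3, and every knockdown library was deeper than every control library.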
